A study of Mus musculus with 24 samples.

Results

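The miR-199 family of the mouse is made from 3 precursor genes, and the deposited small-RNA counts hold a row for each: mmu-mir-199a-1, mmu-mir-199a-2 and mmu-mir-199b, written without the species prefix from here on. They are 3 of the 1187 precursors listed. The rows were matched by name and not by their values, but the family was chosen with earlier results of these data known. The counts come from BV2 cells, an immortalised mouse microglial line, and from the extracellular vesicles (EVs, membrane particles shed into the medium) of the same line. The cells had LPS (lipopolysaccharide, a bacterial ligand of Toll-like receptor 4) at 100 ng/mL, IL-10 at 50 ng/mL or TGF-β at 50 ng/mL for 72 h, or were controls, for which the labels give no agent, dose or time. Each of the 4 treatments has 3 libraries of EVs and 3 libraries of cells, so 24 libraries form 8 groups. All are from 1 cell line with no genetic change named. Nothing in the labels tells if replicate libraries are separate cultures, so the p-values rest on a spread between libraries that may be technical. Libraries are called by the numbers at the end of the column names.

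A microRNA precursor is a hairpin that is cut into a short duplex, and a strand of it guides Argonaute proteins to messenger RNAs that pair with its seed, bases 2 to 8. The miR-199 genes lie opposite to dynamin genes, and the family is best known from mesenchymal tissue, where the transcript Dnm3os carries mir-199a-2 together with mir-214. In other cells, work on human and rodent material has tied miR-199a-5p to the NF-kB kinase IKKβ, to HIF-1α and to the TGF-β response of fibroblasts through caveolin 1, and miR-199a-3p to mTOR.

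The mature sequences of the 3 genes are nearly the same. They are shown from RefSeq (GRCm38.p6), with the seed in capitals, because they set which reads the rows can hold.
miR-199a-3p and miR-199b-3p: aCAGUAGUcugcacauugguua
miR-199a-5p: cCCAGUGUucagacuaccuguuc

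The 3p product has the same 22 bases whichever of the 3 genes it comes from. Neither seed occurs in any other of the 1679 mature names of the RefSeq table. The hairpins are shown next with both arms in capitals, because only the bases outside the arms, and a single base inside the 5p arm, can place a read on 1 gene.
mir-199a-1: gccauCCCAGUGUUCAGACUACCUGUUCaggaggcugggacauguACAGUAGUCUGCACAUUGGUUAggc
mir-199a-2: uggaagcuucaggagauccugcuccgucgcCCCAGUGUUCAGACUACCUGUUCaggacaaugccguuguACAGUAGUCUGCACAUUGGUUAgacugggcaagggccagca
mir-199b: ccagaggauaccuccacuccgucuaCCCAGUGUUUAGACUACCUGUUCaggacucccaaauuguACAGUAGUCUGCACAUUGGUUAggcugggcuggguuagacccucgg

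Both arms are identical between mir-199a-1 and mir-199a-2. The 5p arm of mir-199b differs from miR-199a-5p by C10U, counted from 1 at the 5′ end of miR-199a-5p, and its seed is the same. On GRCm38, mir-199a-1 lies at chr9:21496495-21496564 on the minus strand, in an intron of Dnm2 and opposite to it. mir-199a-2 lies at chr1:162217814-162217923 on the plus strand, opposite to an intron of Dnm3 and inside an exon of Dnm3os. mir-199b lies at chr2:32318460-32318569 on the plus strand, opposite to an intron of Dnm1. The build the authors counted on is not given in the sources used here, and these places are those of the reference annotation.

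The total count was 15071 to 28727 in an EV library and 185400 to 409969 in a cell library. mir-6236 and mir-6240 took 54.6% to 88.2% of the counts of an EV library and 0.678% to 2.15% of a cell library, which left 1825 to 11753 counts for all other precursors in an EV library. No 2 libraries of a group looked like copies of 1 library, since the chi-square per degree of freedom of the 24 pairs was 4.52 to 33.5. Intervals and floors of counts cover counting error only, because PCR copies were not separated from molecules.

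In BV2 cells the family was moderately low and was counted in every library. By mean share of counts mir-199a-2 ranked 156, mir-199a-1 ranked 157 and mir-199b ranked 162 of the 1187 precursors, of which 700 had a count in cells. In LPS cells mir-199a-1 had 37, 23 and 19 counts. In IL-10 cells it had 102, 85 and 90, in TGF-β cells 44, 92 and 73, and in control cells 50, 96 and 59. The fewest reads were therefore in the LPS libraries, which were also the shallowest with 185400 to 233757 counts, and IL-10 libraries held 340140 to 352120. As a share, the lowest library was LPS library 3 with 92.1 CPM of mir-199a-1, here plain counts per library total (exact Clopper-Pearson 95% interval 55.4 to 144), and the highest was IL-10 library 1 with 290 CPM (236 to 352).

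The 3 rows moved as 1. mir-199a-1 and mir-199a-2 had equal counts in 7 of the 12 cell libraries and differed by at most 3 counts in the others. mir-199b had fewer counts than mir-199a-2 in 10 of 12 and the same in 2, by 0 to 13 counts, so that it held 86.3% to 100% of the mir-199a-2 count (median 93.3%). Summed over 3 libraries, mir-199b held 93.8% of the mir-199a-2 count in LPS cells, 92.2% in IL-10 cells, 93.8% in TGF-β cells and 90.9% in control cells. Such near-equal rows may hold the same reads counted up to 3 times, and whether they do cannot be told from the tables, which do not separate the arms. The rows are therefore given side by side and are not 3 separate measurements of the family.

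**Figure D1:**
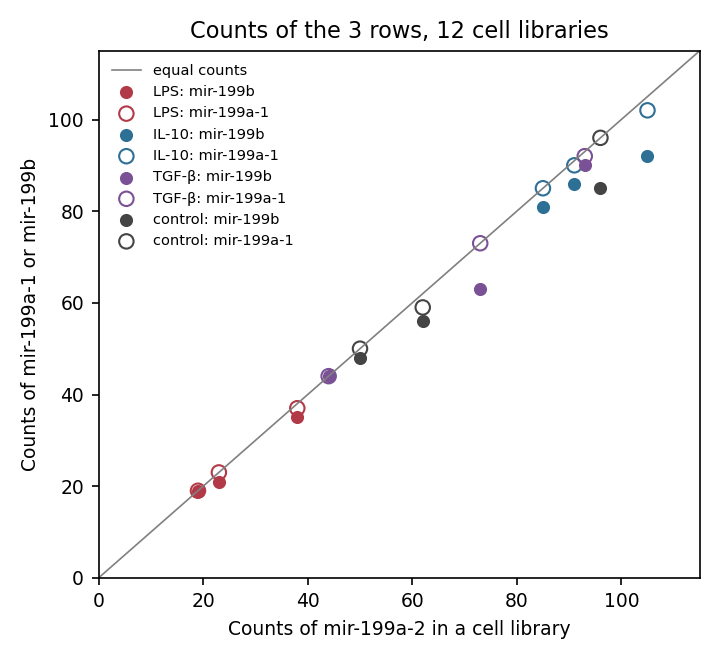
Counts of mir-199a-1 (open circles) and mir-199b (filled circles) against counts of mir-199a-2 in the same library, for the 12 cell libraries, coloured by treatment. The line marks equal counts: mir-199a-1 lies on it in 7 of 12 libraries, and mir-199b lies on it in 2 and below it in 10.

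Levels between treatments are compared as normalised CPM, which are CPM after scaling by edgeR's TMM factors of the 12 cell libraries. mir-199a-2 measured 194, 146 and 103 normalised CPM in LPS cells, 287, 283 and 250 in IL-10 cells, 157, 298 and 205 in TGF-β cells, and 137, 225 and 187 in control cells. mir-199a-1 measured 189, 146 and 103 in LPS cells, 279, 283 and 247 in IL-10 cells, 157, 295 and 205 in TGF-β cells, and 137, 225 and 178 in control cells. mir-199b measured 179, 133 and 103 in LPS cells, 252, 270 and 236 in IL-10 cells, 157, 288 and 177 in TGF-β cells, and 132, 199 and 169 in control cells. The IL-10 libraries sit close together and high, the TGF-β libraries spread widest, and TGF-β library 2 is as high as any IL-10 library.

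The order of the means was IL-10, TGF-β, control and LPS for each row. mir-199a-2 averaged 148 ± 45.5 normalised CPM in LPS cells, 273 ± 20.6 in IL-10 cells, 220 ± 71.7 in TGF-β cells and 183 ± 44 in control cells (SD, n = 3 each). Neighbours in this order did not differ beyond their spread: IL-10 against TGF-β, TGF-β against control and LPS against control all missed the threshold, as given below. The spread within a group was above that of most precursors. The biological coefficient of variation fitted by edgeR was 15.9% for mir-199a-1, 16.1% for mir-199a-2 and 15.5% for mir-199b, and its median over the precursors tested was 12.7%.

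**Figure D2:**
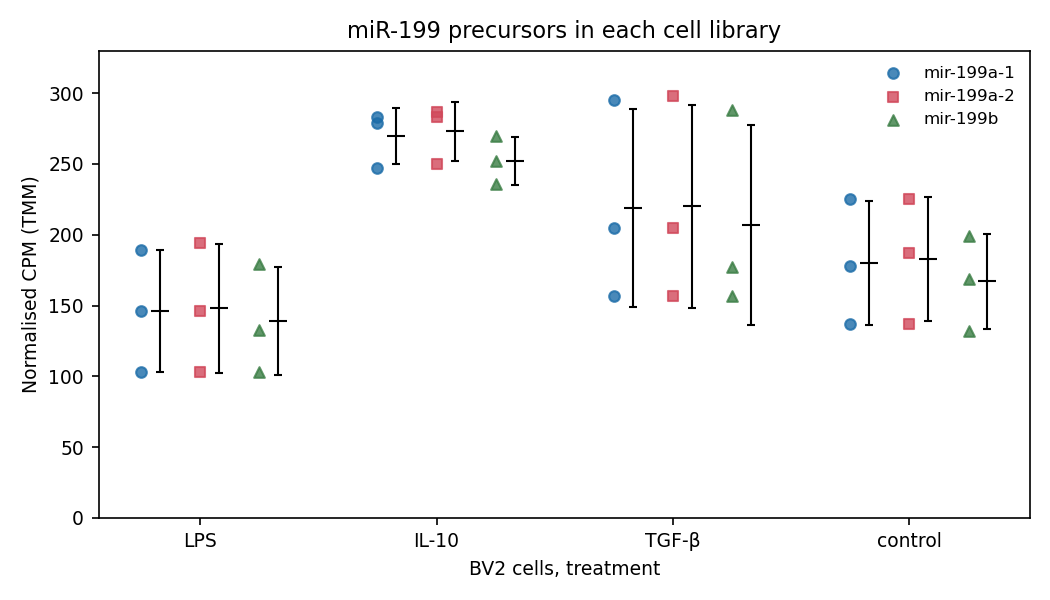
Normalised CPM (TMM) of mir-199a-1, mir-199a-2 and mir-199b in each of the 12 cell libraries, by treatment, with the mean and SD of 3 libraries beside each set of points. All IL-10 points lie above all LPS and all control points of the same row, while the TGF-β points overlap with every other group.

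The clearest difference in cells was between LPS and IL-10. All 3 rows were lower after LPS than after IL-10, mir-199a-1 by 1.83-fold, mir-199a-2 by 1.83-fold and mir-199b by 1.81-fold. mir-199a-1 had a log2 fold change of -0.87 ± 0.25 (SE, 95% interval -1.40 to -0.34, edgeR quasi-likelihood test, adjusted p = 0.0107 over 259 precursors). The values were -0.87 ± 0.26 for mir-199a-2 (adjusted p = 0.0109) and -0.85 ± 0.25 for mir-199b (adjusted p = 0.0119). Each of the 3 LPS libraries was below each of the 3 IL-10 libraries, in all 3 rows.

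Many other precursors did the same. Of the 259 tested, 23.9% were called lower after LPS than after IL-10 and 20.5% higher, and in 25.9% the LPS libraries lay wholly below the IL-10 libraries. By p the rows ranked 58 to 60 of 259, so the family was among the called precursors without standing out from them. LPS library 3, the lowest of all, decided the call: without it the log2 fold changes were -0.65 for mir-199a-1, -0.65 for mir-199a-2 and -0.66 for mir-199b, with adjusted p of 0.0640, 0.0650 and 0.0640. With any other LPS or IL-10 library left out, and in each other setting that was run for a row, the call held.

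Against control, the mean after LPS was lower and the means after IL-10 and TGF-β were higher, but no row passed the threshold. For LPS the log2 fold changes were -0.30 ± 0.26 for mir-199a-1, -0.31 ± 0.27 for mir-199a-2 and -0.26 ± 0.26 for mir-199b (edgeR adjusted p = 0.401, 0.401 and 0.466), and the groups overlapped. The 95% interval of mir-199a-2 ran from -0.86 to 0.24. With 1 library left out its value ran from -0.60 without LPS library 1 to -0.12 without LPS library 3, and it was not called. In the same comparison 11.2% of the precursors tested were called lower and 20.8% higher. With library totals in place of TMM factors the 3 rows were called lower, at -0.70, -0.71 and -0.67. That scaling moved the median of all precursors tested to -0.32, against 0.09 with TMM, and relative to the median mir-199a-2 was at -0.39 with library totals and -0.40 with TMM.

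For IL-10 against control the log2 fold changes were 0.57 ± 0.22 for mir-199a-1, 0.57 ± 0.22 for mir-199a-2 and 0.59 ± 0.22 for mir-199b (edgeR adjusted p = 0.104, 0.108 and 0.0925). Each IL-10 library was above each control library in the 3 rows. Such separation upward was found in 22.4% of the precursors tested, and 5.41% were called higher. The interval of mir-199b ran from 0.14 to 1.04, above 0 (unadjusted p = 0.013), while the p adjusted over all precursors did not pass. No setting tried brought any of the rows past the threshold, and without control library 1 mir-199a-2 was at 0.36.

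For TGF-β against control they were 0.28 ± 0.23, 0.26 ± 0.23 and 0.31 ± 0.22 for mir-199a-1, mir-199a-2 and mir-199b (edgeR adjusted p = 0.469, 0.489 and 0.419), and the libraries overlapped. Of the precursors tested, 3.47% were called higher and 3.09% lower. TGF-β library 2 was the highest of the 3 in each row, and without it the values were -0.0077, -0.030 and -0.017, so the direction rests on that library. The 3 comparisons share the control libraries and are not independent of each other.

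Between LPS and TGF-β cells, the log2 fold changes were -0.58 ± 0.26 for mir-199a-1, -0.57 ± 0.26 for mir-199a-2 and -0.57 ± 0.26 for mir-199b (edgeR adjusted p = 0.0974, 0.104 and 0.0976). The libraries overlapped, since TGF-β library 1 was below LPS library 1, and 13.9% of the precursors tested were called lower. Single libraries moved this result: the 3 rows were called without LPS library 1, where mir-199a-2 was at -0.82 (adjusted p = 0.0421), and without TGF-β library 1, at -0.74 (adjusted p = 0.0300). Without LPS library 3 it was at -0.35, and without TGF-β library 2 at -0.30. Between IL-10 and TGF-β cells they were 0.29 ± 0.22, 0.31 ± 0.22 and 0.28 ± 0.22 (adjusted p = 0.466, 0.442 and 0.478), with overlapping libraries and 8.11% of the precursors tested called higher. With 1 library left out mir-199a-2 ran from 0.12 without TGF-β library 1 to 0.58 without TGF-β library 2.

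**Figure D3:**
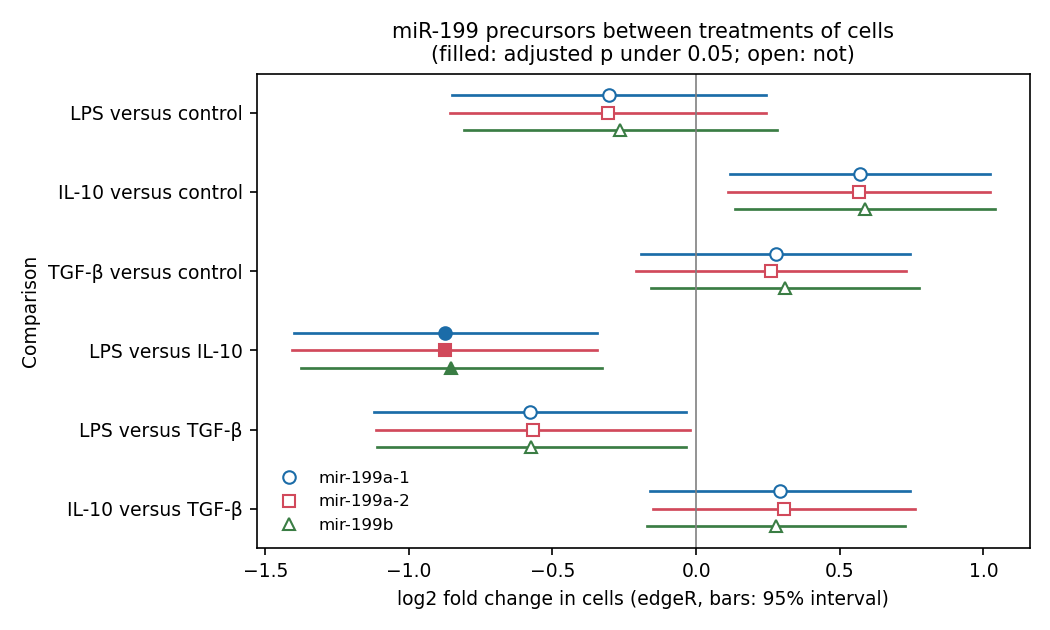
log2 fold change (edgeR, TMM factors) of the 3 rows in the 6 comparisons between treatments of cells, with bars for the 95% interval, filled symbols for an adjusted p under 0.05 and open ones otherwise. The LPS versus IL-10 symbols are filled, at -0.87, -0.87 and -0.85, and the 3 IL-10 versus control intervals lie above 0 with open symbols.

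Library depth and markers were set beside the LPS to IL-10 difference. Besides the depths given above, the precursors listed as microglial and myeloid (5 of 6 listed names were in the files, and none was at 0 in any group of cells) summed to 40960 to 47284 CPM of the library total in LPS cells, against 5152 to 6058 in IL-10 cells. mir-146a, which is switched on by NF-kB and dampens Toll-like receptor signalling, gave 26113 counts in LPS cells and 1589 in IL-10 cells, the larger part of the LPS sum. Of the 5 listed precursors it was the 1 called higher after LPS than after IL-10, while mir-511 at -2.64 ± 0.42 (edgeR adjusted p = 2.73e-05) and mir-223 were called lower and mir-142a at -0.11 ± 0.16 and mir-342 at 0.19 ± 0.21 were not called. The median of the list was -0.11. The list of mesenchyme and fibroblast, the cells in which miR-199 is best known (5 of 6 names in the files: mir-214, mir-143, mir-145a, mir-10a and mir-10b), summed to 0 to 27 CPM in LPS cells and 0 to 5.72 in IL-10 cells. In the LPS libraries mir-214, mir-10a and mir-10b were at 0, and in the IL-10 libraries mir-143, mir-145a and mir-10a. The neuron list (8 of 11 names in the files) summed to 184 to 261 CPM in LPS cells and 88.2 to 169 in IL-10 cells. Nearly all of it was mir-128-1 and mir-128-2, with 64 and 62 counts in LPS cells and 71 and 65 in IL-10 cells. The other 6 were at 0 in IL-10 cells, and mir-9-1, mir-9-2 and mir-9-3 were at 0 in LPS cells. Both tested members were called higher after LPS, mir-128-1 at 0.80 ± 0.30 (edgeR adjusted p = 0.0374) and mir-128-2 at 0.87 ± 0.30 (adjusted p = 0.0251). Over the 12 cell libraries the other lists summed to 65.6 to 185 for endothelium (mir-126a alone), 6.93 to 59.9 for epithelium, 4.85 to 55.4 for oligodendrocytes, 0 to 16.2 for muscle and 0 to 11.4 for serum, red cells and liver. The part of depth and of the myeloid and neuron precursors in the result was not tested. In bulk libraries, fewer cells holding a precursor and less of it per cell cannot be told apart.

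mir-214, which follows mir-199a-2 in the Dnm3os transcript, was nearly absent from the counts. Its hairpin lies 5444 bases downstream on the same strand. It had 9 counts in the 12 cell libraries together, from 5 of them and at most 3 in a library. The mir-199a-2 row had 779 counts from all 12. Those counts cannot be assigned to the gene in Dnm3os, since mir-199a-1 has the same arms and a row of 770 counts. The 2 values are therefore not a comparison of 2 products of 1 transcript. Its sums were 0 in LPS cells, 2 in IL-10 cells, 3 in TGF-β cells and 4 in control cells. It did not pass the filter on low counts and was not tested.

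Other precursors of the pathways to which miR-199 has been tied were read in the same LPS to IL-10 comparison, in which 20.5% of all precursors tested were called higher and 23.9% lower. Of 5 precursors of NF-kB feedback, 3 were higher and 1 lower after LPS than after IL-10, with a median log2 fold change of 3.33 beside 0.00 over all precursors tested. The value for mir-146a was 4.98 ± 0.17 (edgeR adjusted p = 1.58e-16), with mir-146b at 3.82 ± 0.16 and mir-155, which is induced by inflammatory signals, at 3.33 ± 0.28. mir-223, a myeloid precursor, was lower at -0.74 ± 0.24 (adjusted p = 0.0199), and mir-21a was at 0.12 ± 0.14 without a call. Of 5 precursors of the hypoxia and HIF-1 list, 2 were lower and 1 was higher. mir-210, a direct HIF-1 target, was at -1.81 ± 0.33 and mir-322 at -1.15 ± 0.15, while mir-17 of the miR-17-92 cluster was at 0.62 ± 0.15.

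The TGF-β and fibrosis list was split. Of its 13 precursors 10 were tested, since mir-143, mir-145a and mir-214 did not pass the filter. After LPS relative to IL-10, 3 were higher and 5 were lower, where 20.5% and 23.9% of all precursors tested were called. The other 2 were not called, and the median was -0.18. The 3 were mir-29a at 0.38 ± 0.15, mir-29b-1 at 1.19 ± 0.21 and mir-29b-2 at 1.39 ± 0.24, of the miR-29 family that represses collagen messages. The 5 were mir-181a-1 at -1.36 ± 0.48, mir-181a-2 at -1.54 ± 0.50, and mir-23b, mir-27b and mir-24-1 of 1 cluster at -0.47 ± 0.14, -0.53 ± 0.15 and -0.51 ± 0.13. After TGF-β itself against control, mir-23b was higher at 0.60, mir-21a lower at -1.03 and the other 8 were not called. Over all precursors tested, 3.47% were called higher and 3.09% lower in that comparison.

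Across the 12 cell libraries, the precursors whose levels followed the family most closely were mir-183, let-7d, mir-467a-10, let-7c-1 and let-7c-2, of 243 candidates with a mean of at least 10 counts. Pearson's r with the mean profile of the 3 rows was 0.803 for mir-183 and 0.802 for let-7d, and 0.761, 0.761 and 0.758 for the next. Spearman's rho was 0.846, 0.818, 0.804, 0.811 and 0.811. These are descriptions over 12 libraries that share their scaling factors. Among the 3 rows themselves r was 0.99 to 0.999.

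Their order of group means was that of the family. The 5 were chosen for likeness over these same libraries, so a shared order was largely built in and is not a separate result. mir-183 averaged 6624 ± 396 normalised CPM in LPS cells, 8959 ± 644 in IL-10 cells, 7866 ± 865 in TGF-β cells and 7197 ± 390 in control cells (SD, n = 3 each). let-7d averaged 12848 ± 624 in LPS cells, 16989 ± 1972 in IL-10 cells, 14855 ± 2053 in TGF-β cells and 14419 ± 1149 in control cells. mir-467a-10 was nearest to the family in abundance, at 471 ± 61.9 in LPS cells, 622 ± 24.3 in IL-10 cells, 595 ± 114 in TGF-β cells and 559 ± 25.7 in control cells. let-7c-1 and let-7c-2 give the same mature let-7c, so that they too may share reads. In the plot of centred levels the miR-199 rows swing further than these 5, most of all in LPS library 3. Each row had 19 counts in that library, while the 5 averaged 174 to 11395 counts per cell library. Counting error is wider at low counts, and its part in the swing was not tested.

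**Figure D4:**
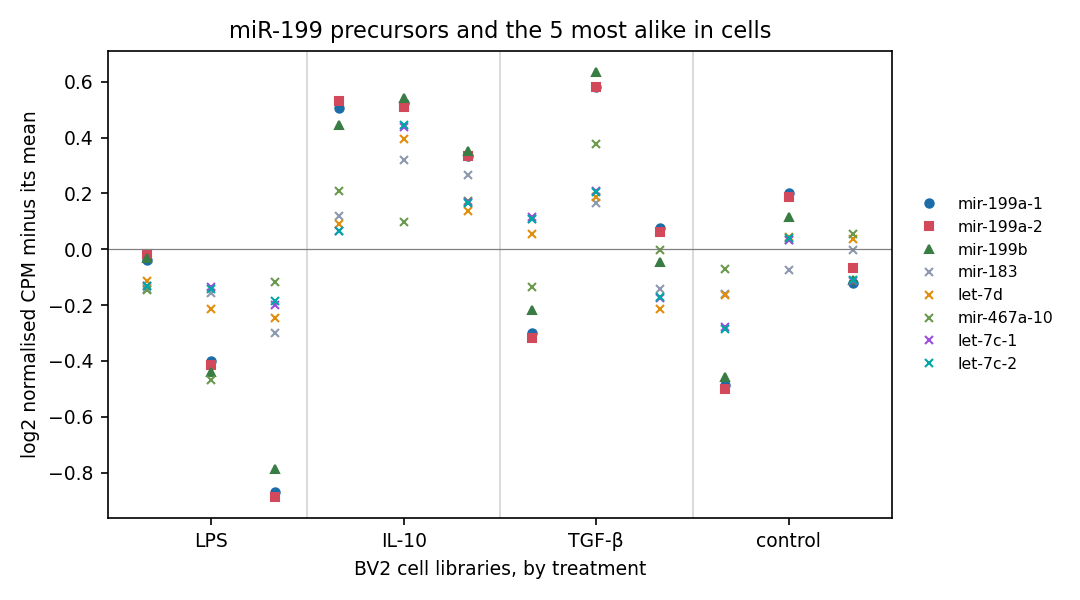
log2 normalised CPM of the 3 miR-199 rows and of the 5 precursors most like them, each minus its own mean over the 12 cell libraries, by library and treatment. LPS libraries lie below 0 and IL-10 libraries above 0 for all 8 precursors, and the miR-199 rows reach furthest from 0. The 5 were chosen for likeness over these same libraries, and the miR-199 rows have fewer counts.

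In EVs the family was at the edge of detection. Over the 12 EV libraries mir-199a-1 had 1 count in all, mir-199a-2 had 4, each in a different library, and mir-199b had 2, in 2 libraries. In cells the same rows had 770, 779 and 720 counts. In LPS EVs mir-199a-2 had 1 count and the other rows 0. In IL-10 EVs all 3 rows had 0 counts. With 3 counts taken as the floor, 0 of 48718 counts allows up to 61.6 CPM. In TGF-β EVs mir-199a-1 had 1 count, mir-199a-2 had 2 and mir-199b had 2. In control EVs mir-199a-2 had 1 count and the other rows 0. No row passed the filter in the EV fit, in which 71 precursors were tested, so treatments of EVs were not compared for the family.

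The depth behind these counts was small. At the share a row had in the cells of the same treatment, the 3 EV libraries of a group together would have held 9.42 to 13.1 counts of it. Without mir-6236 and mir-6240 in the totals the same shares come to 1.69 to 4 counts. On library totals mir-199a-1 was at least 3.31-fold lower in LPS EVs than in LPS cells, at least 4.32-fold lower in IL-10 EVs than in IL-10 cells and at least 3.45-fold lower in control EVs than in control cells, taking 3 counts per group as the floor. For mir-199b these bounds were 3.14, 4.04 and 3.18, and for mir-199a-2 in IL-10 EVs the bound was 4.38. The floor lies below the upper limit of the exact 95% interval, at 169 against 208 CPM in IL-10 EV library 1. On that interval the bounds would be smaller.

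Where 1 or 2 counts were present, the share in EVs is given as a ratio to that in cells with its 95% counting interval. For mir-199a-2 it was 0.0996 after LPS (0.00249 to 0.571), 0.184 after TGF-β (0.0221 to 0.673) and 0.0952 in controls (0.0024 to 0.536). Against totals without mir-6236 and mir-6240 it was 0.25 after LPS (0.00626 to 1.43), 0.952 after TGF-β (0.115 to 3.48) and 0.537 in controls (0.0135 to 3.02). On these totals the bounds for the rows at 0 in LPS EVs were 1.32 for mir-199a-1 and 1.25 for mir-199b, and the floor gave no bound in IL-10 and control EVs. A lower share of the family in EVs was thus not shown at this depth once both dominant precursors were set aside. The bounds of mir-199a-1 and mir-199b in LPS EVs are only just over 1. They rest on the floor, which takes the share in cells as exact. The interval of mir-199a-2 in the same libraries includes 1, and the rows may hold the same reads.

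**Figure D5:**
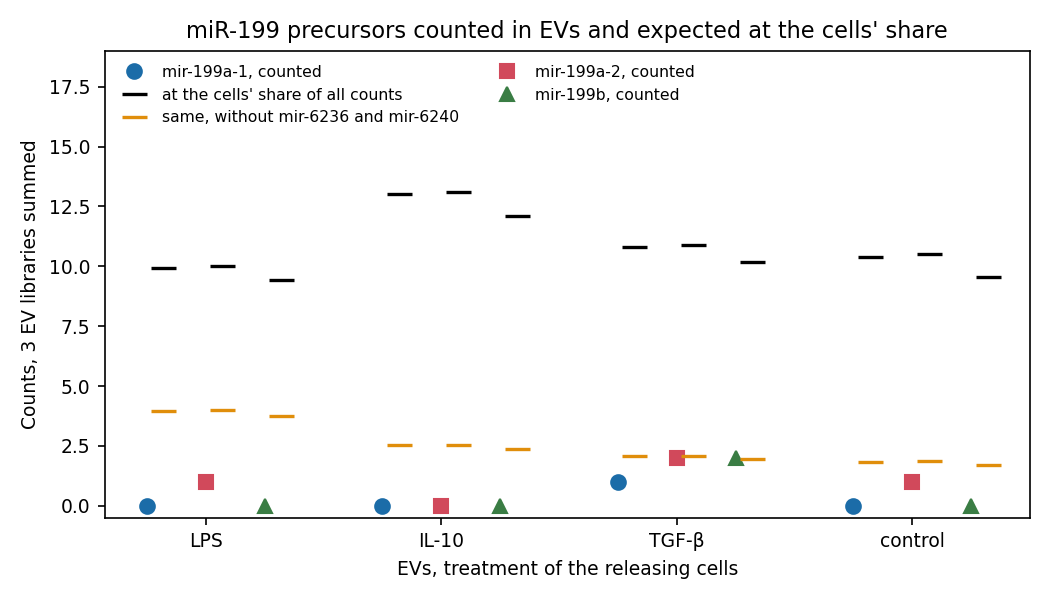
Counts of the 3 rows summed over the 3 EV libraries of each treatment (symbols), with the counts that the cells' share would give in all counts (black bars) and without mir-6236 and mir-6240 (orange bars). The symbols lie at 0, 1 or 2, below the black bars at 9.42 to 13.1, and in TGF-β EVs mir-199b, at 2 counts against 1.97, is the row that reaches its orange bar.

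In 1 fit over the 24 libraries, EVs were compared with cells within each treatment. No row passed the filter in EVs alone, so the rows entered this fit through their counts in cells. Rows admitted that way could hardly be called higher in EVs, so a call of lower was favoured by the filter. After LPS, mir-199a-1 and mir-199b were called lower in EVs (edgeR adjusted p = 0.0433 and 0.0406 over 280 precursors, of which 9.64% were called lower), while mir-199a-2 was not (adjusted p = 0.171). The rows that were called have 0 counts in LPS EVs and the row that was not has 1, so the rows differ here by a single read. Both ended with DESeq2's size factors, with the DESeq2 Wald test and without any 1 of the LPS EV libraries. After IL-10 the adjusted p was 0.0613, 0.0562 and 0.0580 for mir-199a-1, mir-199a-2 and mir-199b, with 15.7% called lower. After TGF-β it was 0.620, 0.955 and 0.919, with 17.9% called lower, and in controls 0.108, 0.456 and 0.105, with 12.5%. With library totals in place of TMM factors the 3 rows were called lower in EVs in each of these 3 treatments, with adjusted p of 0.00022 to 0.0128. That scaling moved the median of all precursors tested to -2.81 after IL-10, -2.99 after TGF-β and -2.67 in controls. The calls were thus made where most precursors tested lay below 0. For mir-199a-2 and mir-199b after TGF-β the log2 fold change turned from 0.08 and 0.18 to -2.40 and -2.31, less far below 0 than that median.

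Whether a treatment shifted the family differently in EVs than in cells was tested with the difference of the effects, and no row passed for LPS, IL-10 or TGF-β (edgeR adjusted p from 0.497 upward). Of the 280 precursors 6.07% were called in either direction for LPS and 0 for IL-10 and TGF-β, where 36 and 30 had an unadjusted p under 0.05. For mir-199a-1 and mir-199b, the LPS, IL-10 and control EVs all had 0 counts, so no effect of LPS or IL-10 in EVs could be estimated. Their SEs were 1001 and 846 for LPS and 847 and 794 for IL-10, and these results could not have passed. With at most 2 counts of a row in a group of EVs, the other comparisons have little depth behind them.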

How the data were processed

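Per the file headers and values, the deposited tables hold whole-number counts of reads per microRNA precursor, made by the authors and not normalized. Not given in the sources used here are the aligner, the annotation, the build and the rule for reads that match several precursors. DESeq2 is named in the submitters' processing notes. The series has 8 count files, and the 6 read here hold all values, since the other 2 repeat their contents. Control columns repeated between tables were equal and used once. Columns name the group and a number, not the sample. Libraries with the same number deviated together in IL-10 versus control cells, 1 of 13 comparisons looked at. The correlations of deviations from the group means were 0.26 to 0.34 for 3 pairs, over 0.1 in each. The labels give no pairing, so a pairing there would rest on the data alone.

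Counts were fitted with edgeR 4.0.16 (limma 3.58.1, R 4.3.3), TMM factors and filterByExpr with a minimum count of 10. The quasi-likelihood F test was two-sided, with Benjamini-Hochberg adjustment over all precursors tested and a threshold of 0.05. One fit covered the 12 cell libraries, another the 12 EV libraries and another all 24, for 16 comparisons. SEs come from the F statistic. The steps were also run on simulated data with the same spread for every precursor and no reads shared between rows. That run does not bear on the miR-199 rows themselves. Alternatives were DESeq2's size factors, library totals, no filter, a minimum mean of 50 counts, DESeq2 1.42.0 (Wald test), a robust prior, the compared groups only, mir-199a-1 without the other rows, no mir-6236 or mir-6240, and each library left out. A block by the column number was added after seeing the data.

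Members and lists were chosen with earlier results of these data known. Named precursors are the members, mir-214, tested members of 3 pathway lists and the 5 with the highest Pearson r to the members' mean log2 profile in cells (prior count 2). Sequences and places come from RefSeq and the mouse annotation of GRCm38, with all 3 members matched by name.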

Additional observations from a re-analysis of the deposited data

How the results depend on the processing

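Of 538 recomputed results of the 3 rows, 479 kept their direction and their side of the threshold. Another 23 passed it newly, 14 lost it and 22 changed sign. The rows may hold the same reads, so these are not 538 separate results. They include the differences of the LPS and IL-10 effects for mir-199a-1 and mir-199b, which in the fit with TMM could not have passed. The 479 therefore says little on how firm any single result is. In what follows values are in the order mir-199a-1, mir-199a-2, mir-199b. With library totals alone, LPS versus control was called at -0.70, -0.71 and -0.67 and LPS versus TGF-β at -0.84, -0.83 and -0.83. With no filter on low counts, LPS versus TGF-β was called at -0.67, -0.66 and -0.66. With a library left out, LPS versus TGF-β ran from -0.82 to -0.31, -0.82 to -0.30 and -0.81 to -0.27, and LPS versus IL-10 from -1.11 to -0.65, -1.13 to -0.65 and -1.08 to -0.66. TGF-β versus control ran from -0.0077 to 0.42, -0.030 to 0.41 and -0.017 to 0.43, never called. For EVs versus cells, library totals alone gave adjusted p of 0.00798 for mir-199a-2 with LPS, 0.000288, 0.00022 and 0.000265 with IL-10, 0.00377, 0.0117 and 0.0128 with TGF-β, and 0.000762, 0.00379 and 0.000738 in controls. With TGF-β, mir-199a-2 and mir-199b then lay on the other side of 0 from the fit with TMM. Other changes of sign were never called. In EVs versus cells with TGF-β they had an adjusted p of 0.952 with DESeq2's size factors and 0.873 with the DESeq2 Wald test for mir-199a-1, 0.922 and 1.0 with no filter and 0.904 and 0.937 without mir-6236 and mir-6240 for mir-199a-2 and mir-199b, and 0.530 to 0.990 and 0.568 to 0.964 with a library left out. In the LPS effect in EVs minus that in cells they had 0.613 (mir-199a-1) and 0.597 (mir-199b) with the Wald test. For mir-199a-2 they had 0.9998 with library totals and 0.662 without control EV library 3. Over all 6 runs with a library left out, with or without a change of sign, mir-199a-2 had 0.453 to 0.9998. For the TGF-β effect mir-199a-1 changed sign without TGF-β EV library 2, at 0.9998. Over all 6 runs with a library left out it had 0.667 to 0.9998. Library totals alone moved the median of all precursors tested in EVs versus cells to -1.14 with LPS, -2.81 with IL-10, -2.99 with TGF-β and -2.67 in controls. The LPS calls ended with DESeq2's size factors (mir-199a-1 0.0615, mir-199b 0.0585), the DESeq2 Wald test (0.0730 and 0.0811), a robust prior for mir-199a-1 (0.0503) and each LPS EV library left out (0.0744 to 0.147 and 0.0710 to 0.143). Beyond the scaling and the libraries named, the cause was not tested.

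Of 548 recomputed counts of called precursors 142 moved by over 1.5 times. LPS versus control had 29 called lower, which became 47 with DESeq2's size factors, 100 with library totals (54 higher becoming 30), 60 with no filter, 44 with the compared groups only, 50 without mir-6236 and mir-6240, and 45 or 19 without control library 2 or 3. LPS versus IL-10 had 62 lower, which became 34 without LPS library 1 or 3 and 41 without IL-10 library 2, and 53 higher, which became 35 with library totals. LPS versus TGF-β had 36 lower and 71 with library totals. IL-10 versus control had 14 higher and 3 to 7 without control library 1 or 3 or IL-10 library 2 or 3, TGF-β versus control 9 higher and 8 lower with 5 and 13 to 19 in settings that moved them, and IL-10 versus TGF-β 21 higher and 13 without TGF-β library 3. EVs versus cells after LPS had 27 lower, and 16 with DESeq2's size factors, 118 with library totals, 43 with no filter, 15 at a mean of at least 50 counts, 49 without mir-6236 and mir-6240, and 9 to 17 without LPS cell library 1 or 2 or LPS EV library 3. Over all settings the number lower in EVs ran from 9 to 166 with IL-10 (44 with TMM), 11 to 160 with TGF-β (50) and 6 to 170 in controls (35).

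The rows gave no value over 24 libraries at a mean of at least 50 counts or with a cell library left out, where they failed the filter, nor for LPS EVs against LPS cells with the compared groups only. A replicate block by the column numbers, chosen after seeing the data, changed no call of the 3 rows. LPS versus IL-10 was at -0.87, -0.87 and -0.85 (edgeR adjusted p 0.00837 to 0.00927). IL-10 versus control was at 0.60, 0.59 and 0.61 (edgeR adjusted p 0.0729 to 0.0760). In that comparison libraries with the same number deviated together, though no label pairs them. The 3 precursors called higher in TGF-β versus control EVs became 0. In the other 12 comparisons of 2 groups not every pair was over 0.1, with correlations of -0.24 to 0.23. At most 2 counts of a row in a group limit what the EV libraries can show.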
